A study of Mus musculus with 4 samples.

Results

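The genes of 9 transcription factors were followed: Tbx21, Eomes, Gata3, Rora, Foxp3, Runx1, Runx2, Runx3 and Ahr. They were chosen by name, with earlier results of these data known. The names cover regulators of T helper fates other than the follicular one, and the Runx family. All 9 were found among 39179 gene identifiers, and all 9 were among the 11702 genes abundant enough to be tested.

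RNA was sequenced from CD4 T cells of OT-II mice, whose transgenic receptor recognises ovalbumin. The cells were transferred into C57BL/6 hosts that then received nitrophenol-coupled ovalbumin under the skin, and on day 8 the Thy-1.1+ transferred cells were recovered from pooled inguinal lymph nodes. T follicular helper (Tfh) cells were CD44hi CXCR5+ PD-1+, and the non-Tfh cells of the same receptor, host strain and day were CXCR5- PD-1-. Each group had 2 libraries, numbered T32 and T53 in both, with no label to say what the numbers stand for or how many animals went into a pool. The p-values therefore reflect the spread of these samples alone, which may be technical.

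Helper T cells acquire their function through a small number of lineage regulators. T-bet (Tbx21) directs the Th1 fate, Gata3 the Th2 fate, ROR family receptors the Th17 fate and Foxp3 the regulatory T cell (Treg) fate, while Eomes and Runx3 are best known from cytotoxic T cells. Tfh cells form under Bcl6, which represses several of these programs. Runx proteins bind DNA through the Runt domain together with the partner Cbfb, and Runx1 and Runx3 silence Cd4 at different stages of T cell development.

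Gene counts per library totalled 12354113 in Tfh T32 and 5725358 in Tfh T53, against 13360563 and 8636056 in non-Tfh T32 and T53, so that 1 count was worth 0.0809 and 0.175 counts per 1e6 of the library (CPM) in the Tfh libraries, against 0.0748 and 0.116 CPM in the non-Tfh libraries. Cxcr5, a gene of the sort, had 747 and 712 CPM in Tfh cells, against 52.6 and 56.0 CPM in non-Tfh cells. Pdcd1, which encodes PD-1, had 536 and 576 CPM in Tfh cells, against 57.0 and 53.4 CPM in non-Tfh cells. Cd44 had 231 and 319 CPM in Tfh cells, against 163 and 218 CPM in non-Tfh cells, and did not pass the test used below (edgeR adjusted p = 0.21). CD4 T cell markers summed to 9025 and 7826 CPM in Tfh cells, against 8191 and 7525 CPM in non-Tfh cells. Cd8a had no count in either Tfh library, against 2 and 0 counts in the non-Tfh libraries. B cell markers summed to 145 and 141 CPM in Tfh cells, against 11.8 and 20.3 CPM in non-Tfh cells, led by Cd22.

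Runx1, Runx2 and Runx3 carried the same arrangement near a RefSeq transcript start (GRCm38.p6), which is shown because the family changed its make-up between the groups. The Runx core motif ACCACA, which reads TGTGGT on the other strand, occurred as a pair with 2 bases of any kind between its copies in each of these genes. Capitals mark the motif, and each stretch runs 5′ to 3′ on the strand of its gene.
Runx1, chr16:92826025-92826054, minus strand: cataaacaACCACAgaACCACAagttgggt
Runx2, chr17:44814583-44814612, minus strand: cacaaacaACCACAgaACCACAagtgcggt
Runx3, chr4:135120503-135120532, plus strand: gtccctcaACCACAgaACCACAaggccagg
The pair began at base 29 in Runx1 and at base 24 in Runx2, counting the start as base 1, and 134 bases before the start in Runx3. The pair was noticed in these windows first and then searched in all of them. Of 32851 promoter windows, from 250 bases before to 50 bases after a start, 7 held it on either strand (0.0213%): the windows of the 3 Runx genes, a window of the predicted gene Gm16225 that overlaps that of Runx3, and 3 others. The single motif occurred in 16.8% of all windows and in 3 of the 11 windows found for 8 of the 9 genes. Other motifs searched on both strands were the GATA motif AGATAA, in 11.2% of all windows and 1 of the 11, the T-box motif GGTGTGA, in 3.98% and none, the ROR half-site AGGTCA, in 16.3% and 2, the forkhead motif TGTTTAC, in 3.65% and none, and the Ahr core GCGTG, in 32.4% and 4. A match describes the letters of these windows and is not evidence of binding.

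Tfh cells had less of 5 of the 9 regulators than non-Tfh cells: Tbx21, Eomes, Runx2, Runx3 and Ahr. None of the 9 passed the test as higher. Gata3, Rora, Foxp3 and Runx1 did not pass. The test was edgeR's two-sided quasi-likelihood test at a threshold of 0.05, and p-values were adjusted by the Benjamini-Hochberg method across every gene tested. Of all genes tested 8.49% were called, 4.47% as higher and 4.02% as lower in Tfh cells. The median log2 fold change (Tfh over non-Tfh) was -1.64 over the 9 regulators and -0.01 over all genes. In all 9 the Tfh and non-Tfh libraries did not overlap, which also held for 52.2% of all genes tested. The RNA comes from bulk samples, in which fewer cells expressing a gene and less RNA per cell cannot be told apart.

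**Figure D1:**
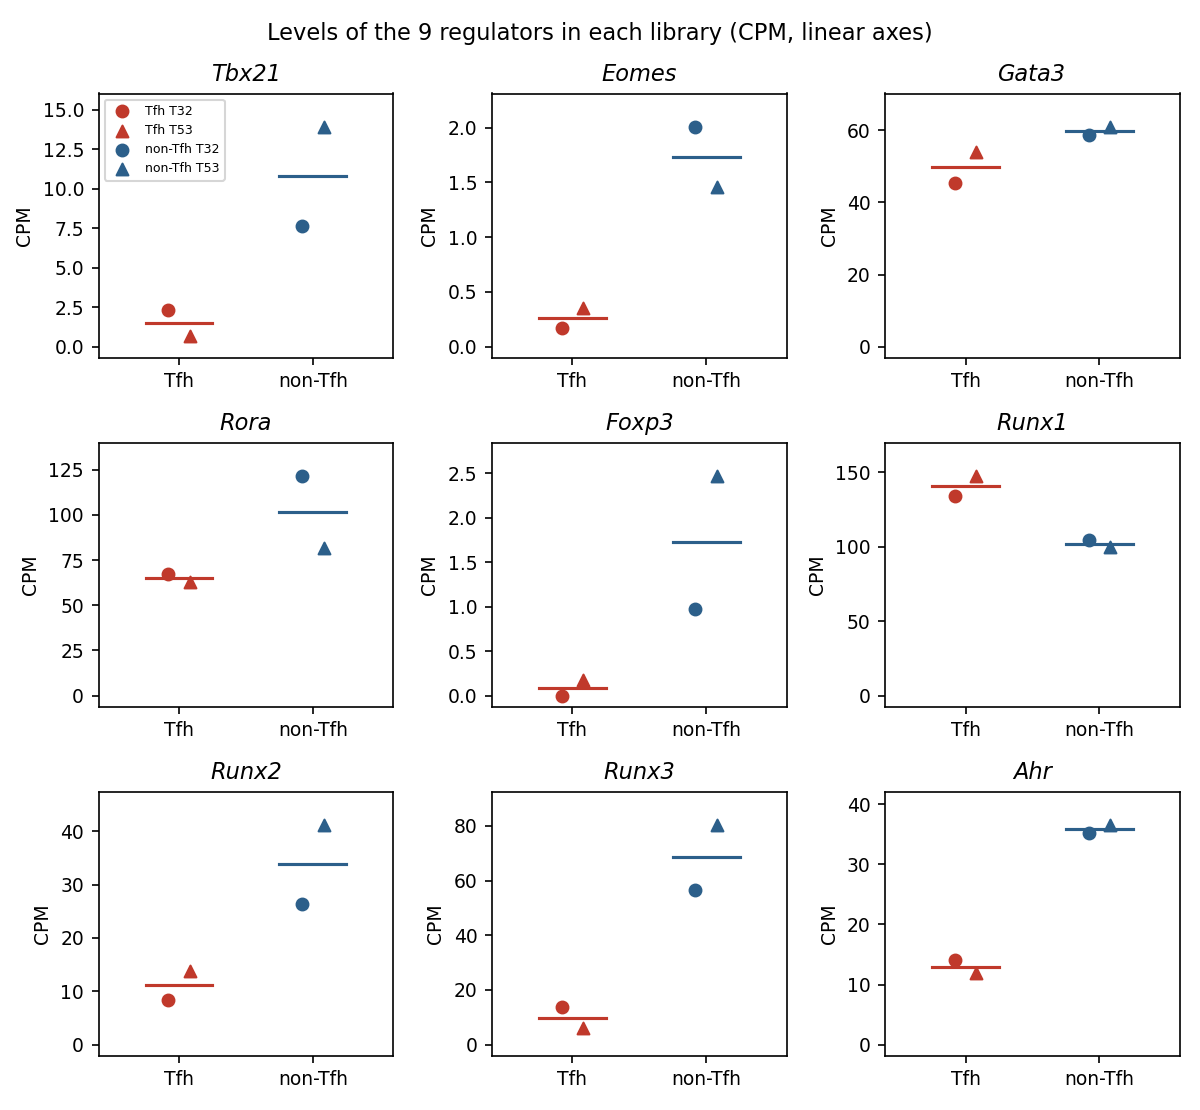
CPM of the 9 regulators in each library, Tfh on the left and non-Tfh on the right of each panel, with lines at the group means. The Tfh libraries lie below the non-Tfh libraries in every panel except that of Runx1, where they lie above.

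Tbx21 encodes T-bet, the T-box factor that switches on interferon gamma and other Th1 genes (ENSMUSG00000001444, GRCm38 chromosome 11, 97098071 to 97115331, minus strand). It had 28 and 4 counts in Tfh T32 and Tfh T53, against 103 and 124 counts in non-Tfh T32 and T53. As CPM these were 2.35 and 0.699 in Tfh cells, against 7.67 and 13.9 in non-Tfh cells, so both Tfh libraries were below both non-Tfh libraries. The means were 1.52 ± 1.16 CPM in Tfh cells, against 10.8 ± 4.43 CPM in non-Tfh cells (SD, n = 2 each), a 6.30-fold lower level in Tfh cells (log2 fold change -2.66 ± 0.54 SE, edgeR adjusted p = 0.0366). Libraries of the same group also differed: the T32 to T53 ratio of CPM was 3.36 in Tfh cells (exact 95% counting interval 1.17 to 13.2), against 0.55 in non-Tfh cells (0.42 to 0.721). The edgeR call was lost without Tfh T53 (log2 fold change -2.17, adjusted p = 0.0527) and without non-Tfh T53 (-2.18, adjusted p = 0.0634), and the log2 fold change was -3.91 without Tfh T32. With limma-voom the adjusted p was 0.0645.

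Eomes is the other T-box factor of T cells and is known for the memory and killing functions of CD8 T cells and natural killer (NK) cells (ENSMUSG00000032446, chromosome 9, 118478212 to 118486132, plus strand). It had 2 and 2 counts in the Tfh libraries, against 27 and 13 counts in the non-Tfh libraries. The levels were 0.168 and 0.349 CPM in Tfh cells, against 2.01 and 1.46 CPM in non-Tfh cells. Both groups were low, and the mean was 7.27-fold lower in Tfh cells (log2 fold change -2.86 ± 0.61 SE, edgeR adjusted p = 0.0391). With any single library left out the edgeR call was lost, with adjusted p-values of 0.273 without Tfh T32, 0.11 without Tfh T53, 0.168 without non-Tfh T32 and 0.0586 without non-Tfh T53. DESeq2 gave an adjusted p of 0.16.

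Genes of the Th1 program linked to T-bet were lower in Tfh cells in 9 of 18 tested cases, with none higher and a median log2 fold change of -1.12. These were 50% of the list, against 8.49% called among all genes tested, 4.02% as lower. Selplg, the selectin ligand PSGL-1, had 90.6 and 64.1 CPM in Tfh cells, against 216 and 177 CPM in non-Tfh cells (log2 fold change -1.34, edgeR adjusted p = 0.0134). Il18r1, a chain of the IL-18 receptor, had 14.7 and 5.06 CPM in Tfh cells, against 186 and 144 CPM in non-Tfh cells (-3.96, edgeR adjusted p = 0.0118). Both genes were separated between the groups, Il18r1 by more. Cxcr6, a chemokine receptor, had 10.6 and 16.1 CPM in Tfh cells, against 61.5 and 71.7 CPM in non-Tfh cells (-2.36, edgeR adjusted p = 0.00281). Ifngr1, a chain of the interferon gamma receptor, had 61.0 and 58.2 CPM in Tfh cells, against 83.1 and 96.8 CPM in non-Tfh cells (-0.59, edgeR adjusted p = 0.0406). The call of Il18r1 was lost without non-Tfh T32 (edgeR adjusted p = 0.152) and also when non-Tfh T53 was left out (0.2), and its log2 fold change was -5.02 without Tfh T32. That of Ifngr1 was lost without Tfh T32 (edgeR adjusted p = 0.129), Tfh T53 (0.214) or non-Tfh T53 (0.0998). Without Tfh T53, 5 of the 18 genes passed as lower.

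Of 8 tested genes of the cytotoxic lineage linked to Runx3 and Eomes, 1 was lower in Tfh cells and none higher, with a median log2 fold change of -2.10. The share called was 12.5%, against 8.49% among all genes. The gene was Klrd1, which encodes the lectin-like receptor CD94, with 10 and 1 counts in Tfh cells, against 41 and 53 counts in non-Tfh cells (log2 fold change -2.88, edgeR adjusted p = 0.045). Its call was lost without Tfh T53 (edgeR adjusted p = 0.0953) and without non-Tfh T53 (0.0979). Without non-Tfh T32, 4 of the 8 genes passed as lower, and without Tfh T53 none did. The median was -3.82 without Tfh T32, -1.62 without Tfh T53, -2.51 without non-Tfh T32 and -1.53 without non-Tfh T53. CD8 T cell markers summed to 6.20 and 3.84 CPM in Tfh cells, against 4.32 and 3.60 CPM in non-Tfh cells. NK cell markers summed to 45.2 and 57.5 CPM in Tfh cells, against 20.0 and 13.4 CPM in non-Tfh cells, led by Klrb1c, with Ncr1, Klra4 and Klra8 at 0 in every library.

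The Runx family shifted in make-up, with less Runx3 and Runx2 in Tfh cells and no call for Runx1. Runx3 encodes a factor that supports Th1 and cytotoxic differentiation and represses Cd4 (ENSMUSG00000070691, chromosome 4, 135120652 to 135177990, plus strand). It had 163 and 35 counts in the Tfh libraries, against 761 and 716 counts in the non-Tfh libraries. The levels were 13.7 and 6.11 CPM in Tfh cells, against 56.7 and 80.5 CPM in non-Tfh cells, with no overlap. The mean fell to 9.89 ± 5.34 CPM in Tfh cells, against 68.6 ± 16.8 CPM in non-Tfh cells (SD, n = 2 each), a 6.57-fold lower level (log2 fold change -2.72 ± 0.38 SE, edgeR adjusted p = 0.0181). Within groups the T32 to T53 ratio was 2.23 in Tfh cells (exact 95% counting interval 1.54 to 3.32), against 0.704 in non-Tfh cells (0.635 to 0.781), so Runx3, like Tbx21, was higher in T32 than in T53 of the Tfh cells and lower in T32 than in T53 of the non-Tfh cells. The edgeR call was lost without non-Tfh T32 (log2 fold change -2.94, adjusted p = 0.0655) and without non-Tfh T53 (-2.44, adjusted p = 0.0977), and the log2 fold change was -3.48 without Tfh T32.

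Runx2, the family member known as the master regulator of bone formation (ENSMUSG00000039153, chromosome 17, 44495987 to 44814797, minus strand), had 100 and 79 counts in Tfh cells, against 354 and 367 counts in non-Tfh cells. As CPM it measured 8.38 and 13.8 in Tfh cells, against 26.4 and 41.2 in non-Tfh cells. T53 was the higher library in both groups, and the groups did not overlap. The level was 3.12-fold lower in Tfh cells (log2 fold change -1.64 ± 0.32 SE, edgeR adjusted p = 0.0326), and the call was lost without Tfh T32 (-1.28, edgeR adjusted p = 0.0898). Exons of Runx2 share 519 bases with the antisense gene Runx2os1, which had 0 and 1 counts in Tfh cells, against 9 and 4 counts in non-Tfh cells. How the counting treated strand is not given in the sources used here, so reads of this stretch could have gone to either gene.

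Runx1, the family member required for blood stem cells and for silencing of Cd4 in early thymocytes (ENSMUSG00000022952, chromosome 16, 92601466 to 92826149, minus strand), had 1603 and 846 counts in Tfh cells, against 1402 and 886 counts in non-Tfh cells. The levels were 134 and 148 CPM in Tfh cells, against 104 and 99.6 CPM in non-Tfh cells. Its Tfh libraries were the higher ones, and its mean was 1.38-fold above that of non-Tfh cells (log2 fold change 0.47 ± 0.11 SE), but it did not pass the test (edgeR adjusted p = 0.0592). With no filter on low counts it passed as higher (edgeR adjusted p = 0.0164).

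**Figure D2:**
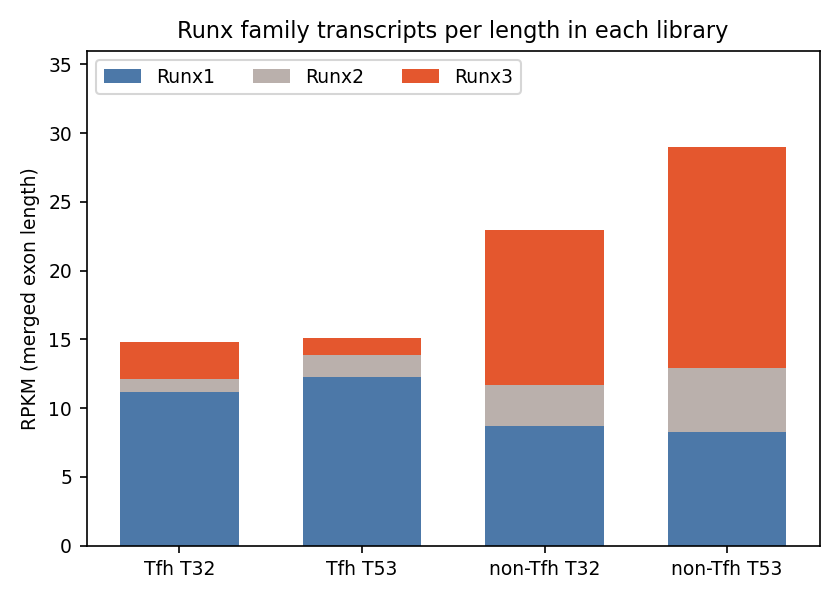
Stacked bars of the level of Runx1, Runx2 and Runx3 in each library, in RPKM (reads per kilobase of merged exons, scaled as CPM), Tfh on the left and non-Tfh on the right. Runx1 makes up most of both Tfh bars, and Runx3 is the largest block of both non-Tfh bars.

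Per length of exon, in reads per kilobase of merged exons scaled as CPM (RPKM), the Runx genes summed to 14.8 and 15.1 in Tfh cells, against 23.0 and 29.0 in non-Tfh cells. Runx1 made up 75.2 and 81.5% of this sum in Tfh cells, against 37.8 and 28.5% in non-Tfh cells. Runx3 made up 18.4 and 8.11% in Tfh cells, against 49.3 and 55.4% in non-Tfh cells, and Runx2 6.39 and 10.4% in Tfh cells, against 13.0 and 16.1% in non-Tfh cells. With the longest transcript as the length, Runx3 made up 12.7 and 5.44% in Tfh cells, against 40.0 and 47.0% in non-Tfh cells, below Runx1 in non-Tfh T32. The log2 ratio of Runx3 to Runx1 counts, which does not depend on library size, was -3.29 and -4.58 in Tfh cells, against -0.88 and -0.31 in non-Tfh cells. An exact permutation test over 2 against 2 libraries gave p = 0.333, the smallest this design allows.

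Among 12 tested partners and corepressors of Runx proteins 1 was higher in Tfh cells, none was lower, and the median log2 fold change was 0.07. This share of 8.33% is close to the 8.49% called among all genes. The gene was Cbfa2t3, a corepressor of the ETO family, with 6.37 and 16.9 CPM in Tfh cells, against 1.34 and 1.80 CPM in non-Tfh cells (log2 fold change 2.87, edgeR adjusted p = 0.0312). Its call was lost without non-Tfh T32 (edgeR adjusted p = 0.198) and also when non-Tfh T53 was left out (0.152), and its log2 fold change was 2.04 without Tfh T53. Cbfb, the shared partner of all Runx proteins, had 203 and 196 CPM in Tfh cells, against 182 and 165 CPM in non-Tfh cells, and did not pass (edgeR adjusted p = 0.382).

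**Figure D3:**
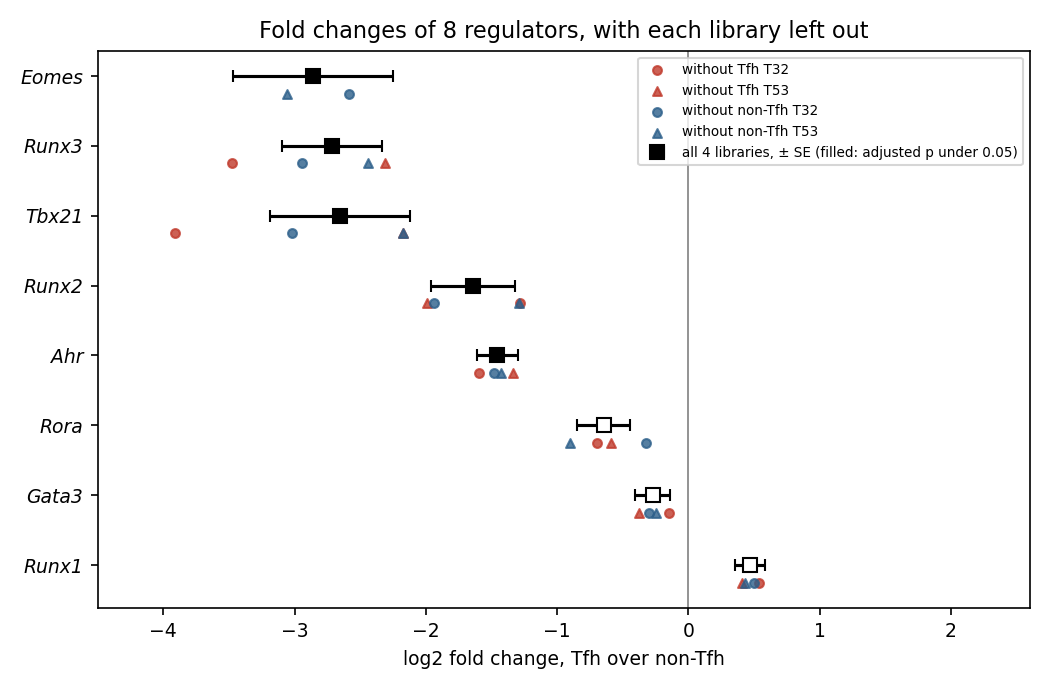
Log2 fold change, Tfh over non-Tfh, of 8 regulators (Foxp3, with 1 count in Tfh cells, is not drawn), as squares with bars of 1 SE from all 4 libraries, filled where called, and as small points with a library left out where each group kept more than 3 counts. Ahr stays close to -1.46 whichever library is left out, while Tbx21 and Runx3 move furthest when Tfh T32 is left out, to -3.91 and -3.48.

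Gata3, which opens the Th2 cytokine locus (ENSMUSG00000015619, chromosome 2, 9857078 to 9890034, minus strand), had 543 and 309 counts in Tfh cells, against 787 and 543 counts in non-Tfh cells. The levels were 45.5 and 54.0 CPM in Tfh cells, against 58.6 and 61.0 CPM in non-Tfh cells. The libraries did not overlap, but the gap was smaller than the spread of the Tfh libraries, and Gata3 did not pass the test (log2 fold change -0.27 ± 0.13 SE, edgeR adjusted p = 0.309).

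Among 13 tested genes linked to Gata3 and the Th2 program, 2 passed as higher and 3 as lower in Tfh cells, at a median log2 fold change of -0.36. Together 38.5% of the list was called, against 8.49% of all genes tested. Il4, the signature Th2 cytokine that Tfh cells also make, had 30.2 and 30.7 CPM in Tfh cells, against 0.819 and 0.45 CPM in non-Tfh cells (log2 fold change 5.49, edgeR adjusted p = 0.000372). Zfpm1, which encodes the Gata cofactor FOG-1, had 167 and 170 CPM in Tfh cells, against 82.8 and 90.9 CPM in non-Tfh cells (0.96, edgeR adjusted p = 0.00623). The receptors went the other way. Il4ra, the IL-4 receptor chain, had 39.6 and 35.1 CPM in Tfh cells, against 72.5 and 87.1 CPM in non-Tfh cells (-1.09, edgeR adjusted p = 0.00921). Ccr4, a chemokine receptor of Th2 and Treg cells, had 23.6 and 19.6 CPM in Tfh cells, against 56.3 and 36.5 CPM in non-Tfh cells (-1.10, edgeR adjusted p = 0.0431), and its call was lost without Tfh T32 (0.0892), without Tfh T53 (0.175) and without non-Tfh T32 (0.0658). With Tfh T32 left out 1 gene of the list passed as lower, and likewise with Tfh T53 left out.

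Rora encodes a nuclear receptor that takes part in Th17 and innate lymphoid cell development (ENSMUSG00000032238, chromosome 9, 68653786 to 69388246, plus strand). It had 801 and 360 counts in Tfh cells, against 1635 and 725 counts in non-Tfh cells. The levels were 67.1 and 62.9 CPM in Tfh cells, against 122 and 81.5 CPM in non-Tfh cells. The Tfh libraries were close to each other, whereas the non-Tfh libraries differed 1.49-fold (exact 95% counting interval 1.37 to 1.63). Rora did not pass the test (log2 fold change -0.65 ± 0.20 SE, edgeR adjusted p = 0.119), and did without non-Tfh T53 (-0.90, edgeR adjusted p = 0.0083) and with no filter on low counts (-0.65, edgeR adjusted p = 0.000182).

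Among relatives of these factors, Foxp1, a forkhead factor known to restrain Tfh differentiation, had 156 and 166 CPM in Tfh cells, against 248 and 319 CPM in non-Tfh cells. Its libraries did not overlap, and it was lower in Tfh cells (log2 fold change -0.82, edgeR adjusted p = 0.026). The call was lost without Tfh T32 (edgeR adjusted p = 0.0943) and without Tfh T53 (0.0748).

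In the Th17 list 8 of 18 tested genes were lower in Tfh cells and 3 were higher, with a median log2 fold change of -1.49. Together 61.1% of the list was called, against 8.49% of all genes tested. The 8 lower genes included Il17f (log2 fold change -4.35, edgeR adjusted p = 0.00587) and Il23r (-2.61, edgeR adjusted p = 0.0116), and the 3 higher ones follow. Hif1a, the hypoxia-inducible factor, had 941 and 1216 CPM in Tfh cells, against 320 and 290.4 CPM in non-Tfh cells (log2 fold change 1.82, edgeR adjusted p = 0.00281). Il1r1, the IL-1 receptor, had 301 and 339 CPM in Tfh cells, against 110.1 and 57.7 CPM in non-Tfh cells (1.93, edgeR adjusted p = 0.0265). Batf, an AP-1 family factor that both Th17 and Tfh cells need, had 134 and 133 CPM in Tfh cells, against 65.9 and 56.9 CPM in non-Tfh cells (1.12, edgeR adjusted p = 0.00467). The call of Il1r1 was lost without Tfh T32 (edgeR adjusted p = 0.123) and without Tfh T53 (0.174). Without Tfh T32, 4 genes of the list passed as lower, and without Tfh T53, 3. The sort took Thy-1.1+ transferred cells. Markers of gamma delta T cells summed to 2.35 and 0.524 CPM in Tfh cells, against 13.9 and 7.53 CPM in non-Tfh cells, most of it on the single gene 5830411N06Rik and with Sox13 at 0 in every library. Of 5 such genes matched, 3 had counts in Tfh cells, against 4 in non-Tfh cells, and their part in these differences was not tested.

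Ahr encodes the aryl hydrocarbon receptor, a ligand-activated factor of Th17 and other cytokine programs (ENSMUSG00000019256, chromosome 12, 35497974 to 35535038, minus strand). It had 168 and 68 counts in Tfh cells, against 473 and 326 counts in non-Tfh cells. The levels were 14.1 and 11.9 CPM in Tfh cells, against 35.2 and 36.6 CPM in non-Tfh cells, close within each group and far apart between groups. The means were 13.0 ± 1.56 CPM in Tfh cells, against 35.9 ± 0.998 CPM in non-Tfh cells (SD, n = 2 each), a 2.74-fold lower level (log2 fold change -1.46 ± 0.16 SE, edgeR adjusted p = 0.00459). Of the 5 called regulators Ahr alone passed under each of the 13 alternatives, with an adjusted p of at most 0.0179.

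Within the Ahr pathway 1 of 11 tested genes was higher in Tfh cells and none was lower, with a median log2 fold change of -0.13. This share of 9.09% is close to the 8.49% called among all genes. The gene was Arnt2, a dimerisation partner related to Arnt, with 62 and 38 counts in Tfh cells, against 18 and 16 counts in non-Tfh cells (log2 fold change 1.91, edgeR adjusted p = 0.0258). Its call was lost without Tfh T32 (edgeR adjusted p = 0.0509), without Tfh T53 (0.0913) and without non-Tfh T32 (0.0778). Cyp1a1, the classical target of Ahr, had 3 counts in all 4 libraries together and Ahrr, the Ahr repressor and itself a target, had 4, so neither could be tested.

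Foxp3, the regulator of Treg cells (ENSMUSG00000039521, chromosome X, 7573644 to 7595245, plus strand), had 0 and 1 counts in Tfh cells, against 13 and 22 counts in non-Tfh cells. The ratio of pooled counts, scaled for library size, was 27.7 in favour of non-Tfh cells, with an exact 95% interval of 4.65 to 1124 that covers counting error only. It did not pass the test (edgeR adjusted p = 0.0601). It passed without non-Tfh T32 (edgeR adjusted p = 0.0429) and with no filter on low counts (0.000119), and without non-Tfh T53 it was too low to be tested. Exons of Foxp3 share bases with Ccdc22, Ppp1r3f and Flicr, so some of these few counts could have been assigned differently.

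Of 18 tested genes linked to Foxp3 and Treg cells, 5 passed as lower and 2 as higher in Tfh cells, at a median log2 fold change of -0.56. Together 38.9% of the list was called, against 8.49% of all genes tested. Ikzf2, which encodes Helios, had 578 and 793 CPM in Tfh cells, against 186 and 216 CPM in non-Tfh cells (log2 fold change 1.77, edgeR adjusted p = 0.00438). Izumo1r, the folate receptor FR4, had 363 and 254 CPM in Tfh cells, against 179 and 176 CPM in non-Tfh cells (0.80, edgeR adjusted p = 0.0493). Il2ra, the IL-2 receptor chain CD25, had 2.35 and 2.10 CPM in Tfh cells, against 70.6 and 38.3 CPM in non-Tfh cells (-4.59, edgeR adjusted p = 0.00265). Capg, an actin-capping protein, had 14.6 and 9.78 CPM in Tfh cells, against 68.8 and 51.5 CPM in non-Tfh cells (-2.27, edgeR adjusted p = 0.00467). Izumo1r lost its call without Tfh T32 (edgeR adjusted p = 0.152), non-Tfh T32 (0.114) or non-Tfh T53 (0.122), and without Tfh T32 2 genes of the list passed as lower.

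**Figure D4:**
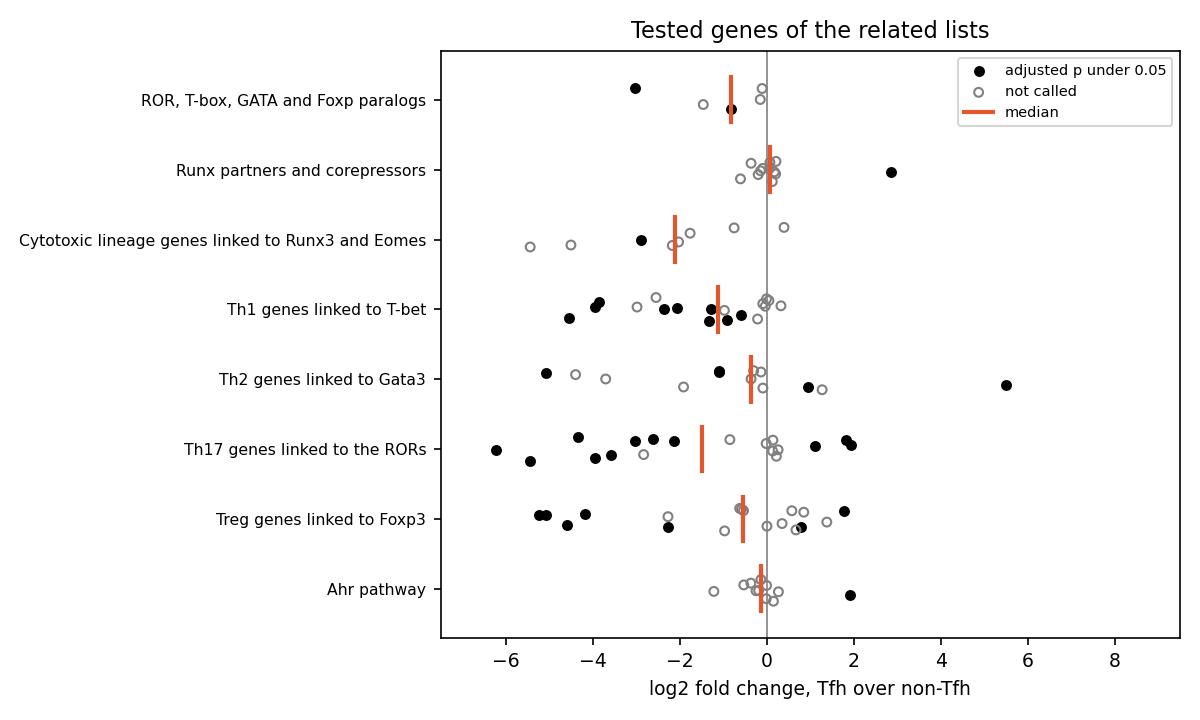
Log2 fold change, Tfh over non-Tfh, of each tested gene in 8 lists of relatives, partners and lineage genes, with filled points for calls by edgeR and a line at each list's median of fitted values. Genes with at most 3 counts in a group are drawn at their ratio of pooled counts, or at their lower bound where a group had none. The Th1 list holds 9 filled points, all below 0, whereas the Th17, Th2 and Treg lists hold filled points on both sides.

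Compared per length of exon, the order of the levels differed between the groups mainly in the place of Runx3. In Tfh cells the mean RPKM ran from Gata3 (12.5) and Runx1 (11.7) over Rora (4.97), Ahr (2.11), Runx3 (1.98), Runx2 (1.25) and Tbx21 (0.612) to Eomes (0.0622) and Foxp3 (0.0191). In non-Tfh cells it ran from Gata3 (15.0), Runx3 (13.7), Runx1 (8.48) and Rora (7.78) over Ahr (5.83), Tbx21 (4.34) and Runx2 (3.83) to Eomes (0.418) and Foxp3 (0.376). Runx3 was thus in place 5 in Tfh cells, against place 2 in non-Tfh cells. The 2 libraries overlapped between Gata3 and Runx1, between Ahr and Runx3 and between Runx3 and Runx2 in Tfh cells, and between Gata3 and Runx3, Runx1 and Rora, Tbx21 and Runx2, and Eomes and Foxp3 in non-Tfh cells, so these neighbours did not differ beyond their spread. With the longest transcript as the length, Runx1 (24.1 RPKM) came first in Tfh cells, and Runx3 and Ahr changed places there. In non-Tfh cells Runx2 (5.23 RPKM) then came before Tbx21 (4.34 RPKM). In Tfh cells 21.4% of all tested genes lay below Runx3, against 74.0% in non-Tfh cells, and 8.43% lay below Tbx21 in Tfh cells, against 38.8% in non-Tfh cells.

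**Figure D5:**
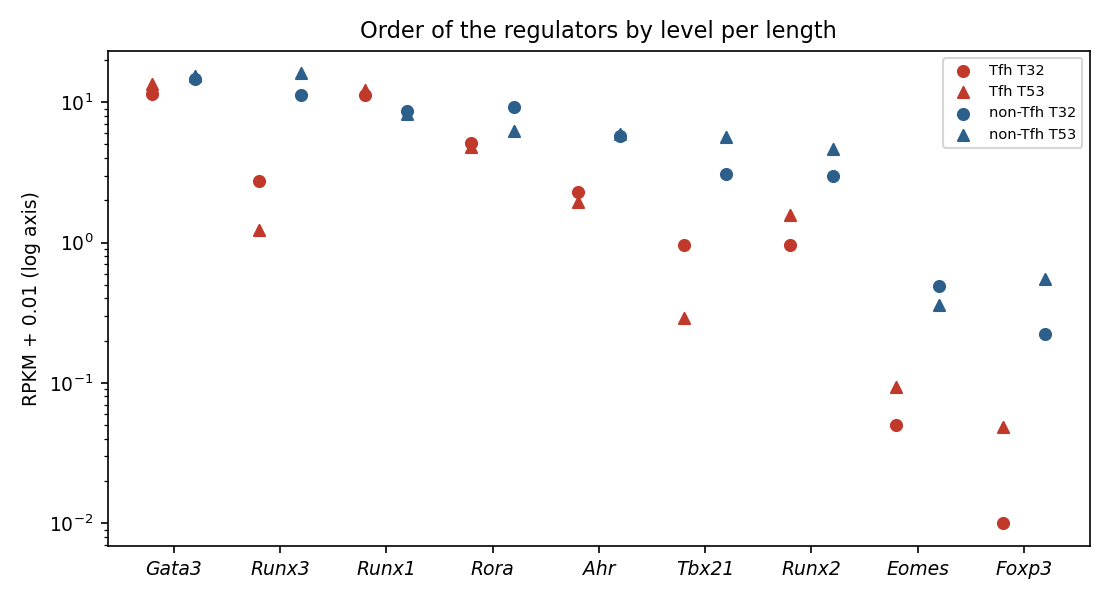
RPKM + 0.01 of the 9 regulators in each library on a log axis, Tfh left of non-Tfh for each gene, with genes in the order of their non-Tfh means. Gata3 is at the top of both groups, at a mean of 12.5 in Tfh cells against 15.0 in non-Tfh cells, and Foxp3 at the bottom.

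Genes whose pattern over the 4 libraries was most like that of each regulator were ranked by the root mean square difference of centred log2(CPM + 0.5) among 8973 genes. For Tbx21 the closest was Lgals3, which encodes galectin-3, at 0.0622, followed by Rras2 and Epas1, and for Runx3 it was Epas1, which encodes HIF-2 alpha, at 0.136, followed by Lgals3 and Cacnb3. Lgals3 had 3.35 and 1.05 CPM in Tfh cells, against 9.98 and 20.1 CPM in non-Tfh cells. Ahr was most like Fam102b (0.0576), then Dpy19l1 and Slc17a9, and Eomes most like Phldb1 (0.0646), then Nod1 and Paqr8. Foxp3 was most like Bach2 (0.0511), then Hip1 and Rapgef4, and Runx2 most like Ctla2a (0.135), then Mtss1 and Hip1. Runx1, Gata3 and Rora varied less and had closer matches: Rab28 (0.0125), Gnas and Ap2m1 for Runx1, Eif2ak3 (0.0135), Kat14 and Galnt12 for Gata3, and Ckb (0.0286), Nhp2 and Aimp2 for Rora. With 4 libraries such likeness is a description only. Foxp3 had 0 and 1 counts in Tfh cells and Eomes 2 and 2, so their patterns depend strongly on the added 0.5.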

How the data were processed

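RNA from 2 Tfh and 2 non-Tfh samples was made into stranded total RNA libraries and sequenced in pairs, per the labels. Raw counts for each Ensembl gene were deposited by the authors; the submitters' processing notes name TopHat2, Bowtie2, HTSeq and GRCm38 (mm10), and versions, annotation release and strand setting are not given in the sources used here. Symbols and lengths came from GENCODE M21 (GRCm38), which matched 37693 identifiers; the other 1486 held 0.209 to 0.228% of counts and stayed in the totals. Counts were fitted in R 4.3.3 with edgeR 4.0.16 (filterByExpr, TMM, robust quasi-likelihood, group only, 2 residual degrees of freedom). CPM are TMM-scaled, and SE is the size of the log2 fold change divided by the root of F. Where a group had 1 to 3 counts in all, the ratio of pooled counts with its exact 95% interval replaces the fitted value. Intervals cover counting error only.

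The 9 genes, the lists and the naming rule were chosen with earlier results of these data known. The rule took the 9 genes, up to 4 called genes of each list by mean CPM, neighbours in the annotation, the 3 most alike genes at a mean of at least 5 CPM, and the genes of the sort. A gene that the rule took is not reported here. As alternatives, counts were scaled by RLE or the upper quartile, tested with DESeq2 1.42.0 or with limma-voom (limma 3.58.1), and fitted with no filter, at least 5 CPM in 2 libraries, no robust option, a replicate block, without the mitochondrial genes and the top 10 genes by count, and with 1 library left out in turn. On simulated counts with trended dispersion edgeR called 16% of genes changed 1.5-fold, 68% changed 2-fold, 90% changed 4-fold and 98% changed 8-fold (50 genes each). Each simulated gene took the dispersion of the trend, without scatter of its own. The shares may therefore be too high for genes that vary more than the trend.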

Additional observations from a re-analysis of the deposited data

How the results depend on the processing

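No regulator changed direction where it could be fitted under any of the 13 alternatives. Of all genes 994 were called, against 1986 with no count filter, 2116 with a replicate block and 545 to 887 with a library left out, the fewest without Tfh T53. Of the 9 regulators 5 were called, against 8 with no filter and 3 to 4 with a library left out, with 3 each without Tfh T32, without Tfh T53 and without non-Tfh T53. The replicate block lost the calls of Tbx21 (edgeR adjusted p = 0.0651) and Runx3 (0.0635) and called Eomes, Rora, Foxp3, Runx1, Runx2 and Ahr; deviations of libraries of the same number correlated at 0.371 over 11702 genes, but no label ties the numbers and there are only 2 pairs. The cause of these shifts was not tested. The biological coefficient of variation was 0.156, and at the depth of Tfh T53 1 count of Eomes or Foxp3 is 0.175 CPM, so differences of these genes rest on few counts.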

Other observations

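The spans of 17 annotated genes overlap those of the 9 regulators, 14 of them among the identifiers, and 3 could be tested: Ppp1r3f and Ccdc22 at Foxp3 and Supt3 at Runx2, none of them called. The nearest annotated coding genes on both sides of the 9 regulators, leaving out those that overlap them, numbered 18. Of these 14 could be tested, and 2 were lower and 1 higher in Tfh cells, where 8.49% of all genes tested were called. Whether place on the chromosome plays a part was not tested. Clic4, a chloride intracellular channel gene 35979 bases from Runx3, had 177 and 62 counts in Tfh cells, against 653 and 294 counts in non-Tfh cells (log2 fold change -1.65, edgeR adjusted p = 0.0148). Tbkbp1, an adaptor of the kinase TBK1 that lies 20840 bases from Tbx21, had 5 and 2 counts in Tfh cells, against 30 and 16 counts in non-Tfh cells (-2.33, edgeR adjusted p = 0.0391). The call of Tbkbp1 was lost with any single library left out, with an edgeR adjusted p of 0.0743 to 0.197. Setd4, which encodes a SET domain protein, lies 757308 bases from Runx1 and had 826 and 314 counts in Tfh cells, against 257 and 229 counts in non-Tfh cells (1.48, edgeR adjusted p = 0.00911).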
